A study of Mus musculus with 16 samples.

Results

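The response of myosin-specific CD4+ T cells to myocardial infarction was set against the response of the recipients' own CD4+ T cells taken from the same draining lymph nodes. A response is the mean log2 array signal after infarction minus that after sham operation, taken within 1 cell population. The quantity tested was the myosin-specific (TCRM) response minus the endogenous (ENDO) response, so a positive value means a higher response in TCRM cells. All 16 of the 16 arrays of the study entered it, and 28941 of the 41345 transcript clusters on the array, each a group of probes for 1 transcript, were bright enough to be tested. Recipients were male BALB/c mice aged 8 to 12 weeks, and the cells were taken on day 7 after the operation. Infarction was made by tying off the left anterior descending coronary artery, and sham animals had the chest opened with the artery left untied. TCRM cells were naive Thy1.1 CD4+ T cells of TCR-M mice, whose transgenic receptor recognises cardiac myosin, and were injected into wild-type Thy1.2 recipients a day ahead of surgery. ENDO cells were Thy1.2 cells of those recipients. The groups were TCRM infarction (5 arrays), TCRM sham (3 arrays), ENDO infarction (5 arrays) and ENDO sham (3 arrays), from 5 infarcted and 3 sham animals. Every animal received donor cells and buprenorphine for pain, so the sham groups share both with the infarction groups. The model is limited in that all TCRM cells carry 1 receptor and were placed in the host before injury, while ENDO cells carry many receptors.

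Cardiac myosin is released from dying heart muscle, and its peptides are shown to CD4+ T cells in the mediastinal lymph nodes that drain the heart. A CD4+ T cell that meets its antigen divides and takes on a helper programme. Follicular helper T cells express the receptor PD-1 and the cytokines interleukin 21 and interleukin 4, which act on B cells. Regulatory T cells restrain other T cells through inhibitory receptors, adenosine and transforming growth factor beta, and some genes, such as Tigit and Nt5e, are used by both kinds of cell.

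Median log2 signal was 5.37 to 5.43 on TCRM arrays and 5.61 to 5.79 on ENDO arrays. How the arrays were normalized is not given in the sources used here, so levels were not compared between the populations and only differences within a population were used. Arrays correlated with others of their own population at 0.935 to 0.968 on average in TCRM cells and at 0.824, for ENDO infarction array 5, to 0.931 in ENDO cells. Residual SD had a median of 0.197 in TCRM and 0.272 in ENDO cells. The source names of both arrays titled infarction 5 say sham; groups taken from the titles gave the authors' own averages in 196 of 196 and 274 of 274 clusters, and the titles were used. Genes could be named only from the authors' deposited tables, which list clusters changed at least 2-fold in 1 population on these same arrays. Of the named genes that could be tested, 138 came from the TCRM table and 21 from the ENDO table, and 25 of the 159 (15.7%) passed the test described next, 24 of them from the TCRM table (17.4% of its 138). Counts of named genes therefore lean towards TCRM responses and are not independent evidence of direction. For the same reason 1 of 9 T cell markers (Trat1) could be seen, and the labelled cell type could not be checked against the others. Of the markers of other cells, 1 of 7 B cell (Cd22), 1 of 4 plasma cell (Prdm1), 1 of 8 CD8 and NK cell (Nkg7) and 1 of 6 neutrophil genes (Stfa3) were named, and 0 of the myeloid, dendritic, stromal and erythroid genes. The part of other cells in any result was not tested. In sorted bulk cells, fewer cells of a kind and less RNA per cell cannot be told apart.

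TCRM and ENDO cells differed in their response for 56 transcript clusters, which is 0.193% of those tested (limma, adjusted p under 0.05). It was higher in TCRM cells for 48 of them (0.166%) and lower for 8. Of these 56, 30 had the larger response in TCRM cells and 26 in ENDO cells. That balance turned with quantile normalization of all 16 arrays (28 and 47) or within each population (44 and 45), array weights (101 and 112) and a weight per population (19 and 27). It also turned without ENDO infarction array 2 (24 and 33) or 4 (19 and 20) and without ENDO sham array 2 (15 and 20) or 3 (9 and 13). Among the 48, 29 were carried by the TCRM response, with a median of 1.79 there and of 0.03 in ENDO cells, and 19 were carried by a lower signal after infarction in ENDO cells. The 29 include 24 clusters of named genes, among them the cytokine genes Il21, Il4, Tgfb3 and Csf1, the inhibitory receptor gene Tigit and the transcription factor gene Maf. Apart from 2 clusters of Cks2, the rest of the 56 have no printable name, and that includes all 8 of the lower ones. At an unadjusted p under 0.05 there were 2567 clusters, or 8.87%. Quantile normalization of all 16 arrays changed the balance to 47 higher and 28 lower, normalization within each population to 60 and 29, and array weights to 125 and 88. The count depended on single arrays: it was 10, 35 and 22 without ENDO sham arrays 1, 2 and 3, and 30 and 82 without ENDO infarction arrays 3 and 5. Leaving out TCRM infarction arrays 1, 2, 4 and 5 in turn gave 24, 12, 23 and 35, and leaving out TCRM sham arrays 2 and 3 gave 20 and 32.

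**Figure D1:**
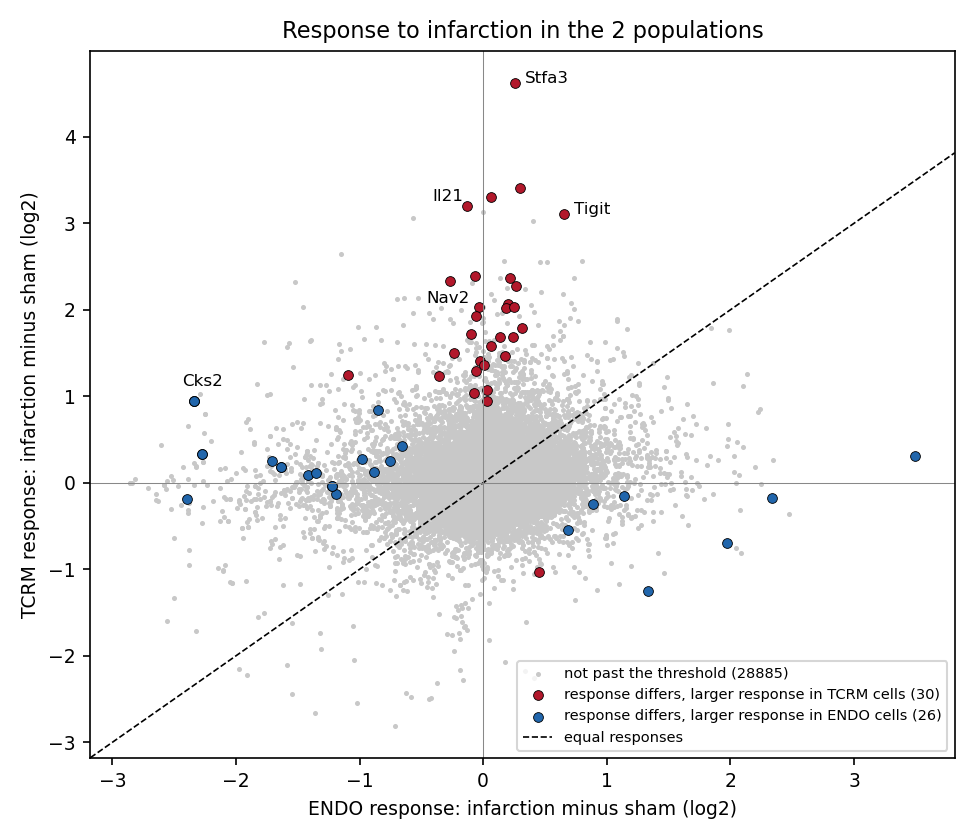
Each point is 1 transcript cluster; the horizontal axis is the ENDO response and the vertical axis the TCRM response (infarction minus sham, log2), and the dashed line marks equal responses. The 30 red points, with Stfa3 (4.62 in TCRM cells) at the top, lie far from 0 on the vertical axis and mostly near 0 on the horizontal one; the 26 blue points lie far from 0 on the horizontal axis.

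Across all tested clusters the responses were of like spread, with an SD of 0.338 for TCRM and 0.379 for ENDO cells. The median difference was -0.0039. A response of at least 1 on the log2 scale was seen in 559 clusters (1.93%) in TCRM cells and in 849 (2.93%) in ENDO cells. Both responses reached 1 with the same sign in 50 clusters and with opposite signs in 31. Pearson's r of the TCRM with the ENDO response was 0.155 and Spearman's rank correlation 0.187 over the 28941 clusters, which share arrays and are not independent. The smallest difference that passed was 0.92 in size; whether a difference passes depends on the spread of its cluster as well as its size.

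Il21 encodes interleukin 21, a helper cytokine that drives B cells to make antibody. Its log2 signal was 8.54, 8.21, 7.16, 8.14 and 7.87 on TCRM infarction arrays 1 to 5, against 5.50, 4.09 and 4.77 on TCRM sham arrays 1 to 3. In ENDO cells it was 5.02, 4.78, 4.71, 4.51 and 4.85 after infarction and 4.71, 5.18 and 4.82 after sham operation. All 5 TCRM infarction arrays lay above the 3 TCRM sham arrays, and the ENDO groups overlapped. The TCRM response was 3.19 ± 0.30 (log2, SE), the ENDO response -0.13 ± 0.30, and the difference 3.33 ± 0.42 (95% interval 2.42 to 4.23, limma adjusted p = 0.0117). On the linear scale signal was 9.15 times the sham level in TCRM cells and 0.913 times in ENDO cells. TCRM sham signal and both ENDO groups lay near the filter cutoff of 4.72, so the size of the TCRM change is less certain than its direction. The adjusted p stayed at or under 0.0408 with each array left out.

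Il4 encodes interleukin 4, the signature cytokine of Th2 cells, which follicular helper cells also make. TCRM infarction arrays 1 to 5 had a log2 signal of 7.54, 7.48, 7.23, 7.70 and 7.26, and TCRM sham arrays 1 to 3 had 5.59, 4.97 and 5.66. The ENDO infarction arrays had 6.09, 4.91, 5.37, 5.84 and 5.84, against 5.45, 5.18 and 5.45 on the ENDO sham arrays. The TCRM groups were separate by more than 1 log2 unit, while the ENDO infarction arrays lay on both sides of the ENDO sham arrays. The response was 2.04 ± 0.24 in TCRM and 0.25 ± 0.24 in ENDO cells, and the difference was 1.79 ± 0.33 (limma adjusted p = 0.0475). That call was among those closest to the threshold. It ended with 13 of the 16 arrays left out in turn, all but ENDO infarction arrays 1, 2 and 5, with an adjusted p of at most 0.154 and a difference of 1.57 to 1.92.

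The promoter windows of Il21, Il4 and Tigit are shown because these genes had helper or receptor roles, responded more in TCRM cells and hold the core letters bound by NFAT, the factor that carries the T cell receptor's calcium signal to the nucleus. Each is 300 bases around a RefSeq gene start on the minus strand of GRCm38.p6, written 5′ to 3′ in the direction of the gene, with every GGAAAA, or its reverse complement TTTTCC, in capitals. The Il21 window is chr3:37232587-37232886, the Il4 window chr11:53618616-53618915 (the outermost of 2 listed starts) and the Tigit window chr16:43664135-43664434.
Il21: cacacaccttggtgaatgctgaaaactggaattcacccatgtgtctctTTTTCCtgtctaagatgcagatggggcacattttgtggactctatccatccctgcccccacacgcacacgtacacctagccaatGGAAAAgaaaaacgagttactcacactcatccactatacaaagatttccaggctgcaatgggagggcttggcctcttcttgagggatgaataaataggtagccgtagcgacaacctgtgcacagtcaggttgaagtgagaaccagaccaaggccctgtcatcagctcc
Il4: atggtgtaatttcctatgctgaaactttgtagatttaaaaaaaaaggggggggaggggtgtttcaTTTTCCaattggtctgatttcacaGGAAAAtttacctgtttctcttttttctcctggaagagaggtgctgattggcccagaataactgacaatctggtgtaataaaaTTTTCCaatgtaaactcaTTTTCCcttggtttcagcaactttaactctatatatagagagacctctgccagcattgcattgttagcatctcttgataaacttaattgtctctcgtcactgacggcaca
Tigit: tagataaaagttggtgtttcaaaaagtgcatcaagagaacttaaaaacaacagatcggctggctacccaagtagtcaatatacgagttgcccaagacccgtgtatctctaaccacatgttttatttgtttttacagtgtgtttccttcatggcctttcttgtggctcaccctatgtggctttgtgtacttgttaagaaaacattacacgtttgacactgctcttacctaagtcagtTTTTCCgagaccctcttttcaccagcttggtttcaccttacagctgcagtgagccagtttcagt
The matches lie 202 and 118 bases before the start in Il21, 185, 161, 78 and 60 bases before it in Il4, and 14 bases before it in Tigit. The window of the other listed Il4 start held 0 matches. In the shares that follow, a gene counted when any of its listed windows held a match. Of the 24 named genes carried by the TCRM response, 19 had a promoter in the table. GGAAAA on either strand occurred in the windows of 5 of them (26.3%: Stfa3, Il21, Tigit, Il4 and Dhrs3), against 26.1% of all 27025 genes with a window. The AP-1 letters TGANTCA occurred in 2 (10.5%, Stfa3 and Cst7), against 8.97% of all genes. The MAF half-site TGCTGAC occurred in 0, against 5.28%. None of the 3 printed windows held an AP-1 or MAF match, so no motifs overlap there. A match is a run of letters in this window, and binding was not measured.

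Tigit, an inhibitory receptor for CD155 on antigen-presenting cells that is found on follicular helper, regulatory and exhausted T cells, had the largest TCRM response of the genes on the follicular helper list after Il21 and Gpm6b. Its log2 signal was 9.78, 9.29, 8.96, 9.25 and 9.03 on the TCRM infarction arrays, against 6.50, 6.07 and 5.90 on the TCRM sham arrays. ENDO signal was 7.19, 5.92, 6.76, 6.06 and 6.11 after infarction and 5.80, 5.36 and 6.11 after sham operation. ENDO infarction arrays 1 and 3 stood clearly above all ENDO sham arrays, array 5 was level with the highest of them, and arrays 2 and 4 lay among them. The response was 3.10 ± 0.28 in TCRM cells, and in ENDO cells it was 0.66 ± 0.28 with a 95% interval of 0.05 to 1.26, so Tigit was the 1 called gene of the TCRM table whose ENDO interval lay above 0. The difference was 2.45 ± 0.40 (limma adjusted p = 0.0266). The call ended without TCRM infarction arrays 2 and 4, TCRM sham arrays 2 and 3, or ENDO sham arrays 1 and 3, with an adjusted p of up to 0.0906.

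Maf, a transcription factor that drives Il4 and Il21 in helper T cells, read 9.77, 9.61, 9.01, 9.39 and 9.05 on the TCRM infarction arrays and 7.29, 7.39 and 7.37 on the TCRM sham arrays. In ENDO cells it read 7.12, 6.84, 6.75, 6.41 and 5.96 after infarction, against 6.66, 6.30 and 6.33 after sham operation. The 3 TCRM sham arrays lay close together and below all infarction arrays, and the ENDO groups overlapped. The difference of responses was 1.83 ± 0.33 (limma adjusted p = 0.0359), from 2.02 ± 0.23 in TCRM and 0.19 ± 0.23 in ENDO cells. It no longer passed without TCRM infarction arrays 1, 2 and 4, TCRM sham arrays 1, 2 and 3, ENDO infarction arrays 3 and 4, or ENDO sham arrays 1, 2 and 3 (adjusted p up to 0.135).

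Pdcd1, which encodes the inhibitory receptor PD-1, did not pass. TCRM infarction arrays had 10.23, 10.54, 9.82, 9.92 and 9.93 and TCRM sham arrays 9.03, 7.92 and 7.40. In ENDO cells the values were 6.91, 6.28, 6.49, 6.08 and 5.94 after infarction and 5.81, 5.79 and 6.18 after sham operation. The TCRM groups were separate, but sham array 1 lay more than 1 log2 unit above the other sham arrays, and the ENDO groups overlapped. The difference of responses was 1.56 ± 0.43 (95% interval 0.64 to 2.47, limma adjusted p = 0.223). With 1 array left out in turn it ran from 1.20 to 2.01, and it passed in 1 of these 16 fits (limma adjusted p = 0.0362).

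Of 22 genes on the follicular helper list 8 were named, all from the TCRM table. Of these, 7 passed with a higher response in TCRM cells, against 17.4% of that table's named genes and 0.166% of all clusters. Pdcd1 also had a higher response in TCRM cells but did not pass. The median difference of the 8 genes was 1.99, against 1.12 for the 138 named genes of the TCRM table and -0.0039 over all clusters tested. That table selects genes that changed in TCRM cells, so neither the count nor the median is evidence about the list. Gpm6b, a membrane glycoprotein of the proteolipid family, had TCRM infarction values of 9.33, 9.16, 8.43, 8.94 and 8.41 and TCRM sham values of 6.16, 6.03 and 4.47. Sham array 3 lay far under the other sham arrays, and the size of this change leans on it. ENDO values were 6.71, 6.0, 6.60, 6.20 and 6.19 after infarction, against 6.41, 6.44 and 6.0 after sham operation, and overlapped. The difference was 3.24 ± 0.47 (limma adjusted p = 0.0177) and no longer passed without ENDO sham array 1 (adjusted p = 0.0731). Angptl2, a secreted angiopoietin-like protein, differed by 2.15 ± 0.31 (adjusted p = 0.0165). It had 8.17 to 9.01 on TCRM infarction and 6.19 to 6.43 on TCRM sham arrays, with 5.54 to 6.31 on ENDO infarction and 5.52 to 5.78 on ENDO sham arrays. Sostdc1, a secreted antagonist of BMP and Wnt signals, differed by 1.35 ± 0.24 (adjusted p = 0.0359), with responses of 1.30 in TCRM and -0.06 in ENDO cells. Angptl2 passed with each array left out, whereas Sostdc1 did so only without TCRM infarction array 4, TCRM sham array 1 or ENDO infarction array 5 and otherwise had an adjusted p of up to 0.129.

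**Figure D2:**
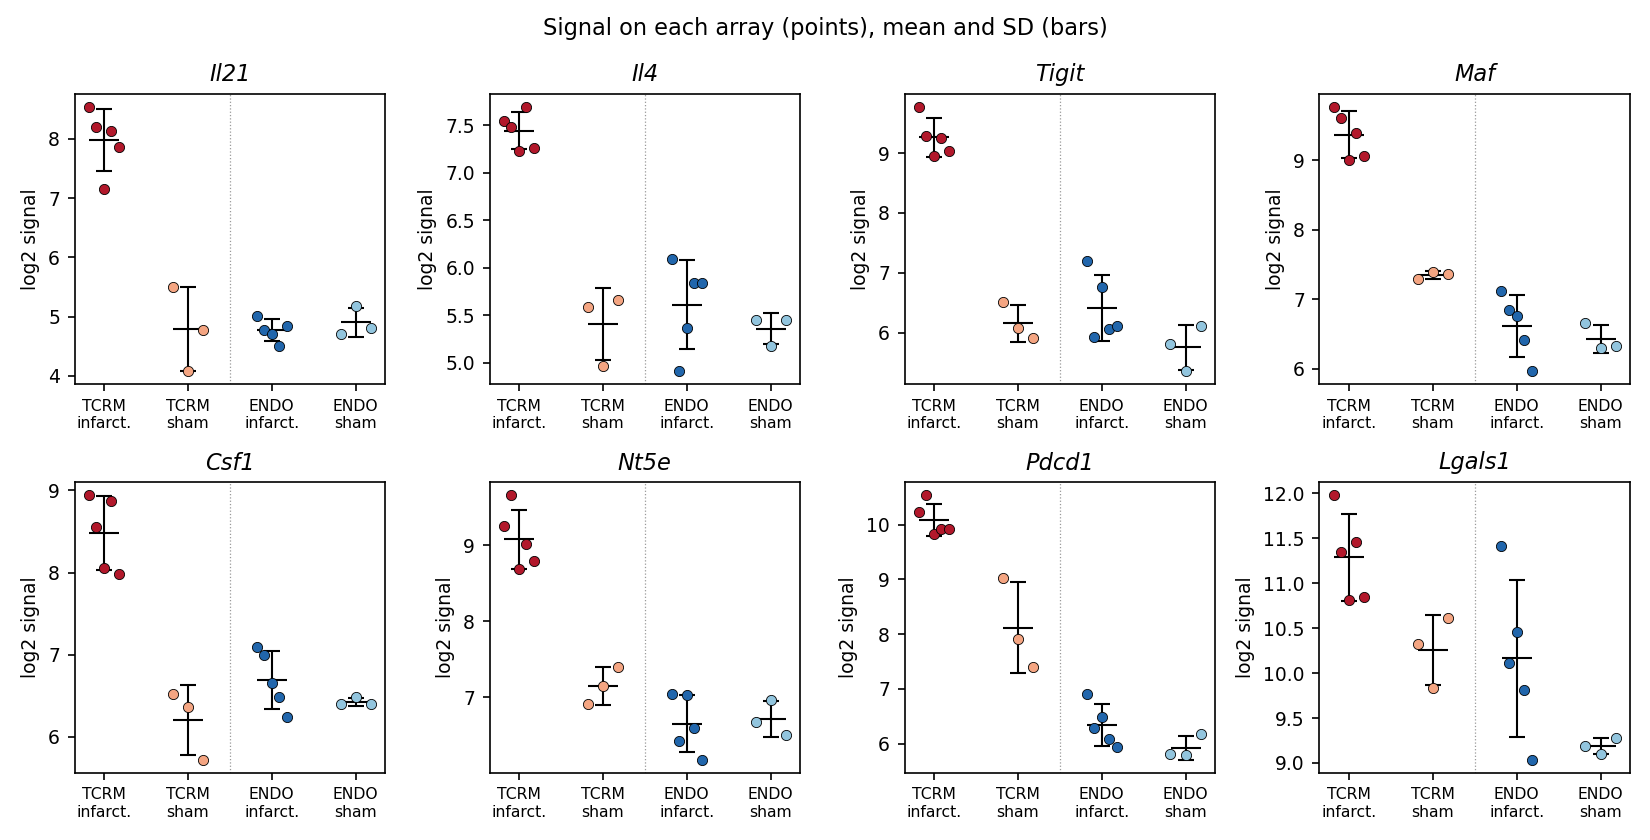
Log2 signal (vertical axes, each with its own range) of 8 genes on every array (points) with the mean and SD of each group (black bars); the dotted line separates the 2 populations, whose levels were not compared. In TCRM cells all infarction arrays lie above all sham arrays for the 8 genes; in ENDO cells the infarction and sham arrays overlap for Il21, Il4, Tigit, Maf, Csf1, Nt5e and Pdcd1, and for Lgals1 4 of 5 infarction arrays lie above the sham arrays.

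Among 35 genes on the list of helper cytokines and growth factors 8 were named, all from the TCRM table. Of these, 5 passed with a higher response in TCRM cells (Il21, Angptl2, Tgfb3, Csf1 and Il4), against 17.4% of that table's named genes. The table was selected on these arrays and the list chosen with earlier results known. The count is thus no evidence about the list. Csf1, the growth factor of macrophages, read 8.94, 8.56, 8.06, 8.87 and 7.98 on the TCRM infarction arrays, against 6.52, 6.37 and 5.72 on the TCRM sham arrays. On the ENDO arrays it read 7.09, 6.99, 6.65, 6.48 and 6.24 after infarction and 6.40, 6.49 and 6.40 after sham operation. TCRM arrays were separate by over 1 log2 unit; in ENDO cells infarction arrays 1, 2 and 3 lay above the sham arrays, array 4 among them and array 5 below them. The difference was 2.01 ± 0.36 (limma adjusted p = 0.0374) and ended without TCRM infarction arrays 1, 2 and 4, TCRM sham arrays 2 and 3, ENDO infarction arrays 3 and 4, or ENDO sham arrays 1, 2 and 3 (adjusted p up to 0.114).

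Tgfb3 encodes a transforming growth factor beta, a family that restrains T cells and drives scar formation. TCRM infarction arrays had 7.19, 7.18, 6.31, 6.31 and 6.23, with arrays 1 and 2 the highest, and TCRM sham arrays had 4.78, 5.25 and 4.74. ENDO signal ranged over 5.16 to 5.32 after infarction and over 5.31 to 5.40 after sham operation. Signal was thus higher on all TCRM infarction arrays than on the TCRM sham arrays, and the ENDO groups overlapped. The difference was 1.82 ± 0.31 (limma adjusted p = 0.0301). It was lost without TCRM infarction array 2, TCRM sham arrays 1 and 3, ENDO infarction arrays 3 and 4, or ENDO sham arrays 1, 2 and 3, with an adjusted p of up to 0.0906. The other named members did not pass: Tnfsf8 (CD30 ligand) differed by 1.11 ± 0.34, Ccl5 (a chemokine for effector T cells) by 1.25 ± 0.49 and Penk (the opioid precursor proenkephalin) by 1.06 ± 0.51, with adjusted p of 0.281, 0.447 and 0.58.

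Ectoenzymes that act on NAD, ATP and adenosine outside the cell responded in different ways. Nt5e, or CD73, which makes adenosine from AMP, had 9.25, 9.66, 8.68, 9.02 and 8.80 on TCRM infarction and 6.90, 7.15 and 7.40 on TCRM sham arrays. In ENDO cells it had 7.04, 6.42, 7.02, 6.59 and 6.18 after infarction and 6.67, 6.97 and 6.50 after sham operation. The TCRM groups did not overlap and the ENDO groups did. Its difference was 1.99 ± 0.34 (limma adjusted p = 0.0301), lost without TCRM infarction arrays 1, 2 and 4, TCRM sham arrays 1 and 2, ENDO infarction array 4, or ENDO sham arrays 1, 2 and 3 (adjusted p up to 0.0906).

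The cluster annotated as Art2a-ps, listed by RefSeq as Art2a, an ADP-ribosyltransferase of the T cell surface that uses NAD, read 9.19, 9.07, 8.45, 8.45 and 8.76 on TCRM infarction and 6.57, 6.76 and 5.85 on TCRM sham arrays. ENDO arrays read 8.05, 7.54, 7.64, 7.30 and 7.11 after infarction and 7.53, 7.64 and 7.61 after sham operation, and ENDO infarction array 1 was the highest and array 5 the lowest of them. The difference was 2.46 ± 0.34 (limma adjusted p = 0.0133), and the adjusted p was at most 0.0476 with any array left out. Art2a has a close paralog, so its identity is uncertain. Cd38, an NAD hydrolase, moved in both populations. TCRM infarction arrays had 9.03, 9.0, 8.82, 9.03 and 9.11 and TCRM sham arrays 7.66, 7.58 and 7.70. ENDO infarction arrays had 6.99, 6.06, 6.46, 6.10 and 5.82, against 5.41, 5.62 and 5.64 on ENDO sham arrays. In both populations the infarction and sham arrays were separate, with infarction higher and responses of 1.36 ± 0.20 in TCRM and 0.73 ± 0.20 in ENDO cells. Their difference was 0.62 ± 0.28 (95% interval 0.03 to 1.22, adjusted p = 0.536) and did not pass. Enpp4, an ectonucleotidase, went the other way without passing (-1.26 ± 0.32, adjusted p = 0.177): its TCRM response was -1.29 and its ENDO response -0.02. Of 18 genes on this list 4 were named, all from the TCRM table. Of these, 2 passed with a higher response in TCRM cells, against 17.4% of that table's named genes. As with the other lists, chosen with earlier results known, this count is no evidence about the list.

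Nav2, neuron navigator 2, a protein of the cytoskeleton known from neurite outgrowth, had the lowest adjusted p of all clusters. Its signal was 8.52, 8.86, 8.18, 8.20 and 8.40 on TCRM infarction and 6.40, 6.28 and 6.52 on TCRM sham arrays. ENDO arrays had 5.62, 5.52, 5.46, 5.25 and 5.53 after infarction and 5.62, 5.53 and 5.39 after sham operation. The TCRM groups were far apart, and the ENDO arrays of both groups lay between 5.25 and 5.62. The difference was 2.07 ± 0.21 (95% interval 1.63 to 2.51, limma adjusted p = 0.00158), and the adjusted p was at most 0.0131 with any array left out. Itgb8, the integrin beta 8 chain, which activates latent transforming growth factor beta, read 8.0, 7.76, 7.68, 7.79 and 7.14 on TCRM infarction and 6.41, 6.15 and 5.95 on TCRM sham arrays. On ENDO arrays it read 6.51, 6.18, 6.35, 6.52 and 6.08 after infarction and 6.52, 6.61 and 6.56 after sham operation. In TCRM cells every infarction array lay above the sham arrays, and in ENDO cells every infarction array lay below them, by a small margin. Its ENDO response was -0.24 ± 0.17 (95% interval -0.60 to 0.13), the TCRM response 1.50 ± 0.17 and the difference 1.74 ± 0.24 (adjusted p = 0.0133, at most 0.0476 with any array left out).

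On the list of extracellular matrix, guidance and adhesion genes 6 of 28 were named, all from the TCRM table. Of these, Nav2, Itgb8 and Gpm6b passed with a higher response in TCRM cells, against 17.4% of that table's named genes. This count too is no evidence about the list, which was chosen with earlier results of these data known. Timp2, an inhibitor of matrix metalloproteinases (0.89 ± 0.23, limma adjusted p = 0.185), and Nrp1, the semaphorin receptor neuropilin 1 (1.26 ± 0.41, 0.315), did not pass. Lad1, a basement membrane protein, had a negative difference of -1.30 ± 0.46 that did not pass either (adjusted p = 0.371). Tmem2, named Cemip2 by RefSeq, a cell surface protein that degrades hyaluronan, differed by 1.44 ± 0.25 (adjusted p = 0.0332). Its responses were 1.68 ± 0.18 in TCRM and 0.24 ± 0.18 in ENDO cells. The Tmem2 call held without TCRM infarction array 3, TCRM sham array 1 or ENDO infarction array 5 and ended with each of the other 13 arrays left out (adjusted p up to 0.107).

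The largest difference was that of Stfa3, a stefin A that inhibits cysteine proteases. TCRM infarction arrays had 8.71, 8.34, 7.88, 9.51 and 7.80 and TCRM sham arrays 4.19, 4.08 and 3.21. In ENDO cells the values were 6.03, 6.05, 6.16, 5.73 and 5.92 after infarction, against 5.97, 6.03 and 5.17 after sham operation. All TCRM infarction arrays lay far above, at 7.80 or more, and all TCRM sham arrays under the filter cutoff of 4.72, while the ENDO groups overlapped. The difference was 4.37 ± 0.48 (limma adjusted p = 0.00293), and the adjusted p was at most 0.0217 with any array left out. The TCRM sham values lie in the range left out as too dim, so the size of the change, and with it the rank, is less certain than its direction. Stfa3 belongs to a family of near-identical genes, so the transcript behind the signal is uncertain. It is also on the neutrophil marker list, where it was the 1 member of 6 that could be named.

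Several called genes stood on none of the lists. Gpr155, known from human cells as a lysosomal sensor of cholesterol, had 8.11, 8.26, 7.77, 7.56 and 8.18 on TCRM infarction arrays, against 5.84, 5.08 and 6.02 on TCRM sham arrays. On ENDO arrays it had 7.15, 7.07, 6.92, 6.59 and 6.47 after infarction and 7.49, 7.06 and 6.78 after sham operation, with array 1 of each group the highest. Its difference was 2.60 ± 0.34 (limma adjusted p = 0.0132, at most 0.0476 with any array left out). Abhd4, a hydrolase of N-acyl phospholipids, differed by 1.87 ± 0.31 (adjusted p = 0.0297), Osbpl3, an oxysterol-binding protein that moves lipids between membranes, by 1.35 ± 0.23 (0.0322) and Eea1, a tether of early endosomes, by 1.55 ± 0.26 (0.0303). For these 3 genes the TCRM responses were 2.07, 1.36 and 1.68 and the ENDO responses 0.20, 0.01 and 0.13. Dhrs3, which reduces retinaldehyde to retinol, differed by 1.59 ± 0.30 (adjusted p = 0.0498). TCRM infarction arrays had 8.73 to 9.12 and TCRM sham arrays 7.29, 7.19 and 8.40, so sham array 3 lay close to the infarction arrays. All 5 ENDO infarction arrays (6.10 to 6.46) lay under the 3 ENDO sham arrays (6.58 to 6.80). Dhrs3 passed on leaving out TCRM sham array 3 (adjusted p = 0.000856) and on leaving out no other array.

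Abhd4 no longer passed without TCRM infarction arrays 1, 2 and 5, TCRM sham arrays 2 and 3, ENDO infarction array 3, or ENDO sham arrays 1, 2 and 3. Osbpl3 no longer passed without TCRM infarction arrays 1, 2 and 4, TCRM sham arrays 1 and 2, ENDO infarction array 3, or ENDO sham arrays 1, 2 and 3, and Eea1 without TCRM infarction arrays 1, 2 and 4, TCRM sham arrays 2 and 3, ENDO infarction array 4, or ENDO sham arrays 1, 2 and 3. Their adjusted p then reached 0.0906, 0.0947 and 0.0906.

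Sccpdh, a protein related to saccharopine dehydrogenase, had 8.99, 8.40, 7.33, 7.63 and 7.12 on TCRM infarction and 4.34, 4.31 and 4.81 on TCRM sham arrays. It had 5.44, 4.90, 4.98, 4.64 and 5.11 on ENDO infarction and 4.76, 4.66 and 4.73 on ENDO sham arrays, all near the filter cutoff. TCRM infarction arrays spread widely but lay above every sham array. The difference was 3.11 ± 0.47 (limma adjusted p = 0.0213). Ptpn13, a protein tyrosine phosphatase, differed by 1.44 ± 0.23 (adjusted p = 0.0254), Coro2b, an actin-binding coronin, by 1.52 ± 0.25 (0.0266) and Cst7, or cystatin F, an inhibitor of the cathepsins that activate cytotoxic granules, by 1.29 ± 0.21 (0.0266). Their TCRM responses were 1.41, 1.59 and 1.47, and their ENDO responses -0.03, 0.07 and 0.18. The call ended for Sccpdh without TCRM infarction array 2, TCRM sham array 2, or ENDO sham arrays 1 and 3, and for Ptpn13 without TCRM infarction array 2, TCRM sham arrays 2 and 3, or ENDO sham arrays 1 and 3. It ended for Coro2b without TCRM infarction array 1, TCRM sham arrays 2 and 3, ENDO infarction array 3, or ENDO sham arrays 1, 2 and 3, and for Cst7 without TCRM infarction arrays 1, 2 and 4, TCRM sham arrays 1 and 3, or ENDO sham arrays 1, 2 and 3. The highest adjusted p was 0.0829 for Sccpdh and Ptpn13 and 0.0906 for Coro2b and Cst7.

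**Figure D3:**
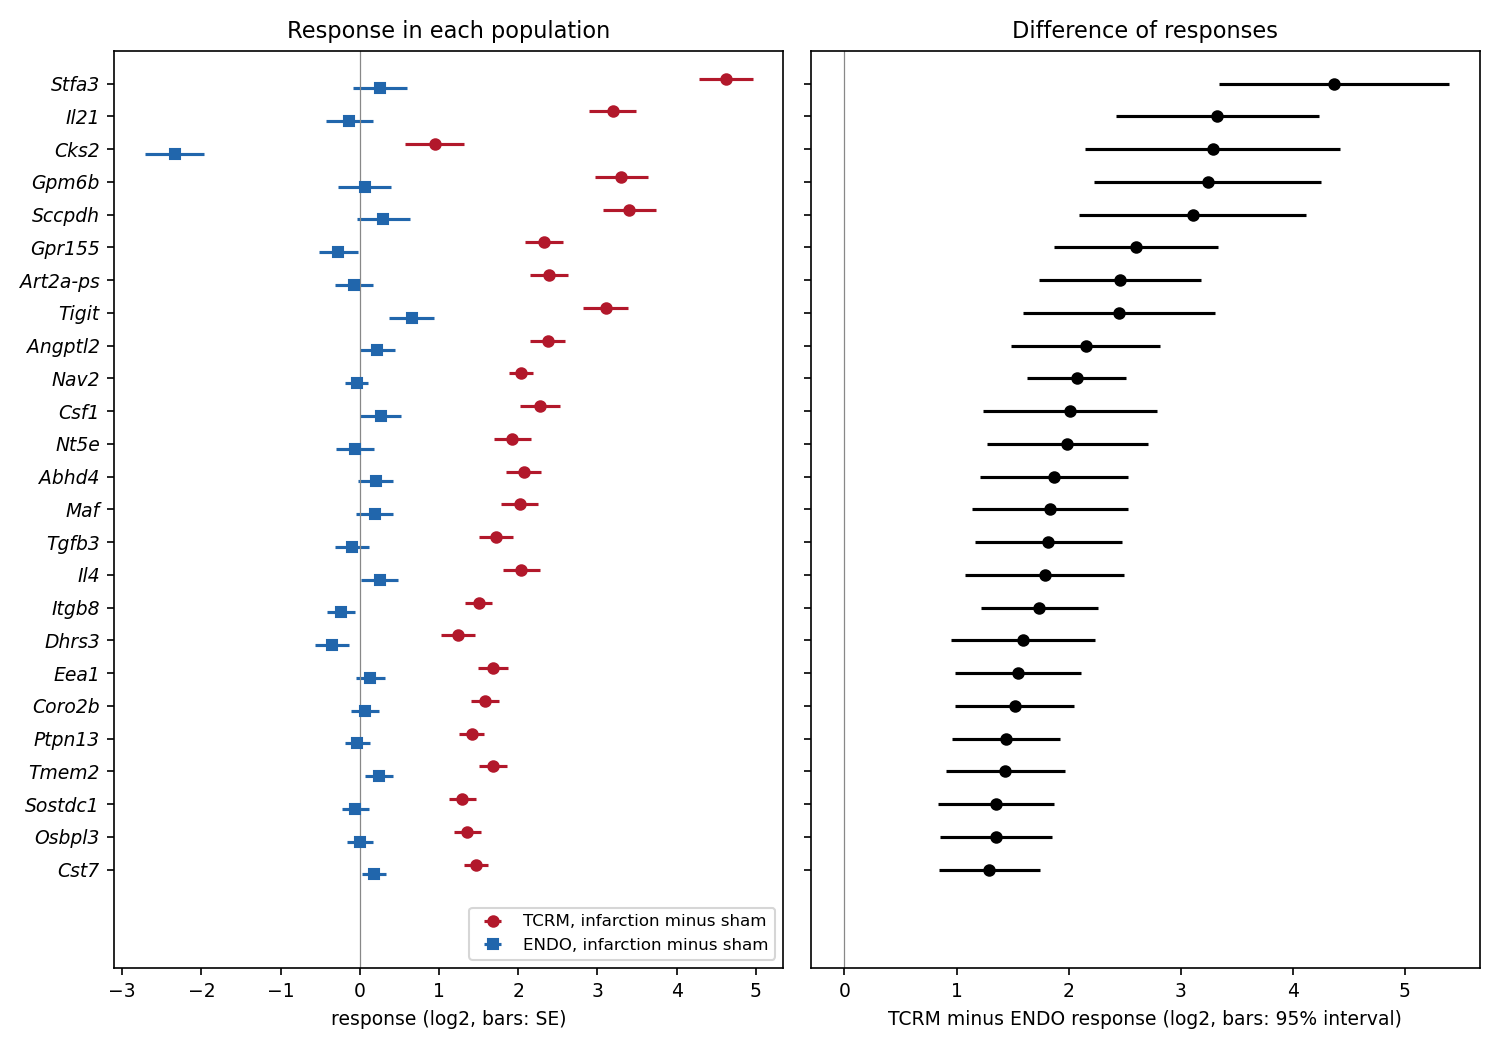
The 25 named genes whose response differed, ordered by the difference. Left, the TCRM (red circles) and ENDO (blue squares) responses with SE; right, the TCRM minus ENDO difference with its 95% interval (log2). For 24 genes the red points lie to the right, between 1.24 and 4.62, and the blue points near 0; for Cks2 the ENDO response of -2.34 carries the difference.

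For 24 of the 25 named genes the TCRM infarction arrays all lay above the TCRM sham arrays, which 5.64% of all clusters did, and the genes owe their names to a change in 1 population. For 22 of the 25 the ENDO groups overlapped; 6.69% of all clusters had ENDO groups that did not. The 95% interval of the ENDO response held 0 for 23 of the 25, with Tigit and Cks2 the exceptions. These intervals rest on 1 spread for all arrays, so they do not measure the spread of ENDO cells alone. An interval that holds 0 does not show that ENDO cells did not respond. The 29 clusters carried by TCRM cells moved by a median of 2.10, 2.17, 1.53, 1.80 and 1.71 from the TCRM sham mean on TCRM infarction arrays 1 to 5. On ENDO infarction arrays 1 to 5 their median shift from the ENDO sham mean was 0.23, -0.04, 0.04, -0.05 and -0.08. Among the 24 genes without Cks2, TCRM infarction array 1 was the highest of its group for 13, which held for 18.6% of all clusters, and TCRM infarction array 3 the lowest for 13, against 23.5% of all clusters. ENDO infarction array 1 was the highest of the 8 ENDO arrays for 12 of the 24, against 23.1% of all clusters, and ENDO infarction array 5 the lowest for 9, against 21.6%. These orders describe the arrays and were not tested.

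The other kind of difference was carried by ENDO cells. The cluster named for Cks2, a subunit of cyclin-dependent kinases, read 6.42, 5.68, 5.14, 4.69 and 5.31 on TCRM infarction and 4.58, 4.07 and 4.86 on TCRM sham arrays. ENDO arrays read 4.55, 5.44, 5.58, 4.93 and 5.92 after infarction and 8.22, 7.45 and 7.20 after sham operation. All ENDO infarction arrays lay well under the ENDO sham arrays, and the TCRM groups overlapped. The difference was 3.28 ± 0.53 (limma adjusted p = 0.0266), from 0.94 ± 0.38 in TCRM and -2.34 ± 0.38 in ENDO cells, and it ended without TCRM infarction array 2, TCRM sham array 2, or ENDO sham array 1 (adjusted p up to 0.0906). This cluster is 1 of 3 with identical values, and the files give another of the 3 a different symbol, so which transcript it measures is uncertain and its name is no sign of a cell cycle change. Of the 19 clusters of this kind, with 14 distinct sets of values, 13 have no single symbol. Their ENDO responses ran from -2.40 to -0.66 with a median of -1.42, and their TCRM responses from -0.19 to 0.94 with a median of 0.25. In all 19 the ENDO groups did not overlap. The unnamed cluster 17230031 had the lowest of these ENDO responses, -2.40, and a TCRM response of -0.19.

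For 7 clusters, all without a printable name, ENDO signal was instead higher after infarction, with ENDO responses of 0.69 to 3.50 (median 1.33) and TCRM responses of -1.26 to 0.31. The largest was cluster 17200555, with a difference of -3.19 ± 0.57, an ENDO response of 3.50 and a TCRM response of 0.31. The last of the 8 clusters with a lower response in TCRM cells, 17403473, had responses of -1.03 in TCRM and 0.45 in ENDO cells. No single symbol was given for any of these 8. Of the 56 differing clusters, 16 stand in neither of the authors' deposited tables.

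With a lower response in TCRM cells, 0 named genes passed in limma's test as reported here, and 17 had an unadjusted p under 0.05. Some passed under other settings, as given below. The closest was Snrpd3, a core protein of the spliceosome's small nuclear particles (-1.25 ± 0.24, limma adjusted p = 0.0554). Its TCRM signal was 10.68, 10.22, 10.54, 10.61 and 10.32 after infarction and 10.76, 10.95 and 10.51 after sham operation. Its ENDO signal was 11.06, 10.70, 10.86, 10.25 and 10.70 after infarction and 9.65, 9.62 and 9.94 after sham operation. The ENDO groups did not overlap and the TCRM groups did. Cdkn2d, an inhibitor of cyclin-dependent kinases (-1.38 ± 0.34, adjusted p = 0.162), Dnajc9, a histone chaperone (-0.76 ± 0.21, 0.223), Ebp, an isomerase of cholesterol synthesis (-1.04 ± 0.30, 0.236), and Ppp1ca, a catalytic subunit of protein phosphatase 1 (-0.99 ± 0.34, 0.342), also had higher ENDO than TCRM responses without passing. Their ENDO responses were 1.49, 0.92, 1.11 and 1.20, and their TCRM responses 0.11, 0.16, 0.07 and 0.21. Over 29 other settings, Cdkn2d passed in 6, Snrpd3 in 5 and Enpp4, described above, in 4. With array weights their limma adjusted p was 0.0054, 0.0101 and 0.0122, and the differences stayed negative under every setting. On the cell cycle and replication list 4 of 41 genes were named, all from the ENDO table. Cks2 alone passed, and it was also the 1 gene to pass of that table's 21 named genes, against 0.193% of all clusters. This count is no evidence about the list. Mcm2, part of the replicative helicase, differed by -0.62 ± 0.36 (adjusted p = 0.695).

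A further set of negative differences that did not pass came from lower TCRM signal after infarction. Arhgap29, a GTPase-activating protein, had responses of -1.38 ± 0.27 in TCRM and 0.05 ± 0.27 in ENDO cells, and a difference of -1.43 ± 0.38 (limma adjusted p = 0.205). Amigo2, an adhesion protein, had -0.94 ± 0.19 and -0.06 ± 0.19 in those populations, with a difference of -0.88 ± 0.27 (adjusted p = 0.294). They were the 2 named of 22 genes on the naive and quiescent T cell list. Trat1, an adaptor of the T cell receptor and the 1 named of 31 genes on the activation list, differed by -0.84 ± 0.38 (adjusted p = 0.546). Arhgap20, a GTPase-activating protein like Arhgap29, differed by -1.96 ± 0.55 (0.233) and Treml2, a receptor of the TREM family, by -1.10 ± 0.35 (0.312). Arhgap20 and Treml2 each passed in 2 of 29 other settings.

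The named genes of effector and memory migration did not pass. Of 29 genes on that list 5 were named, all from the TCRM table. In limma's test of the difference 0 passed, against 17.4% of that table's named genes. At an unadjusted p under 0.05 there were 4, against 8.87% of all clusters. These counts are no evidence about the list. Lgals1, or galectin 1, had 11.98, 11.35, 10.82, 11.45 and 10.84 on TCRM infarction and 10.32, 9.84 and 10.61 on TCRM sham arrays. It had 11.42, 10.11, 10.46, 9.81 and 9.04 on ENDO infarction and 9.19, 9.10 and 9.28 on ENDO sham arrays. In TCRM cells the groups did not overlap, and in ENDO cells 4 of 5 infarction arrays lay above the sham arrays and array 5 below them. The responses were 1.03 ± 0.40 in TCRM and 0.98 ± 0.40 in ENDO cells. Their difference was 0.05 ± 0.57 with a 95% interval of -1.16 to 1.27, which leaves room for a difference of more than 1 in either direction. The other members were Cxcr3, a chemokine receptor of Th1 cells (0.92 ± 0.20, adjusted p = 0.103), Anxa2, a membrane-binding annexin (0.92 ± 0.28, 0.282), and the calcium-binding proteins S100a4 (1.20 ± 0.40, 0.333) and S100a6 (1.64 ± 0.71, 0.514).

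Other genes with like responses in both populations were Rilpl2 (1.06 in TCRM and 0.53 in ENDO cells), Vamp5, a vesicle fusion protein (0.97 and 0.58), Tbc1d4, a regulator of glucose transporter traffic (1.20 and 0.69), and Myl6, a myosin light chain (1.09 and 0.95). The mitochondrial transcripts ND4L (-0.78 in TCRM and -1.36 in ENDO cells) and mt-Tr (-1.19 and -1.62) and the ribosomal n-R5s14 (-1.12 and -0.57) had negative responses in both, and their infarction and sham arrays overlapped in TCRM cells. The 95% interval of the difference ran from -0.26 to 1.32 for Rilpl2 and from -1.53 to 1.81 for Myl6, so equal responses were not shown. These genes were chosen for the smallness of their difference.

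The counts by helper type that follow are of genes preselected for a change on these arrays, of which 17.4% in the TCRM table passed. On the Th2 list 2 of 3 named genes (of 13), Maf and Il4, passed with a higher response in TCRM cells. Nfil3, a transcription factor, did not pass (1.34 ± 0.33, limma adjusted p = 0.171). Of 2 named Th17 genes (of 13), Il21 passed and Il1r1, the interleukin 1 receptor, did not (1.57 ± 0.45, 0.236). Of 3 named Th1 and cytotoxic genes (of 20), Cxcr3, Ccl5 and Nkg7, a cytotoxic granule protein (0.58 ± 0.35, 0.712), 0 passed in limma's test and 2 had an unadjusted p under 0.05. Of 4 named regulatory T cell genes (of 24), Tigit and Nt5e passed and Nrp1 and Prdm1, which encodes the repressor BLIMP-1 (0.59 ± 0.27, 0.553), did not. The inhibitory receptor, exhaustion and anergy list gave 2 of 5 named genes (of 27), again Tigit and Nt5e, with Cd22, Pdcd1 and Nrp1 not passing. Cd22, a B cell marker, differed by 0.94 ± 0.21 (adjusted p = 0.103). Egln3, an oxygen-sensing prolyl hydroxylase and the 1 named of 24 hypoxia genes, differed by 2.23 ± 0.50 (0.111), and Trim34a, the 1 named of 29 interferon genes, by 1.53 ± 0.55 (0.378). Over the 15 lists, 41 of 317 genes were named, 36 of them from the TCRM table, and 14 passed, against 25 of all 159 named genes (15.7%) and 0.193% of all clusters. The lists overlap, so the same genes recur. They were also chosen with earlier results of these data known, so none of these counts is evidence about a list.

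Just outside the threshold, 10 named genes had a higher response in TCRM cells with limma adjusted p between 0.0537 and 0.0838. They were Flrt2, a guidance and adhesion protein (1.78 ± 0.34), Cyfip1, a regulator of actin branching (1.17 ± 0.23), H1f0, a linker histone (1.66 ± 0.32), Bhlhe40, a transcription factor of cytokine-producing T cells (1.42 ± 0.28), and Dsp, the desmosome protein desmoplakin (1.62 ± 0.32). The others were Wisp1, a secreted matrix protein that RefSeq names Ccn4 (1.28 ± 0.25), Plscr1, a phospholipid scramblase (1.04 ± 0.21), Ptger2, a prostaglandin receptor (1.45 ± 0.30), Nfia, a transcription factor (1.19 ± 0.25), and Fam43a (2.08 ± 0.44). None of the 10 passed here. H1f0 showed the pattern of the called genes, with 10.18, 10.47, 9.87, 10.01 and 9.81 on TCRM infarction and 7.90, 7.97 and 8.18 on TCRM sham arrays, and 8.11, 7.25, 7.75, 7.15 and 6.88 on ENDO infarction and 7.11, 7.05 and 6.96 on ENDO sham arrays. The TCRM groups were far apart, and the ENDO groups overlapped with array 1 the highest.

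Other settings ended the calls of some or all named genes. A fit that paired arrays by number, as a fixed replicate block, ended all 25 (limma adjusted p of 0.0524 to 0.135). No label ties a number to an animal. After quantile normalization of all 16 arrays, Abhd4, Eea1, Osbpl3, Tmem2, Maf, Sostdc1, Csf1, Il4 and Dhrs3 no longer passed, with limma adjusted p of 0.0506 to 0.0887. Centring each array on its median ended the calls of Abhd4, Nt5e, Eea1, Osbpl3, Maf, Sostdc1, Csf1, Il4 and Dhrs3 (0.0542 to 0.0701). A separate weight for each population, which allows for the larger spread of ENDO cells, ended those of Coro2b, Tgfb3, Tmem2, Sostdc1, Csf1 and Dhrs3 (0.0508 to 0.104). Without the filter on dim clusters Maf, Sostdc1, Csf1, Il4 and Dhrs3 did not pass (0.0501 to 0.0679). With both infarction 5 arrays left out, Il4 and Dhrs3 did not pass (0.0564 and 0.0829), and with these arrays counted as sham, as their source names say, 0 clusters passed and 3033 had an unadjusted p under 0.05. The differences of the 25 genes stayed positive throughout. Settings also added calls: of the 75 genes named in the text, 41 passed with array weights and 30 with quantile normalization within each population. Nav2, Stfa3, Il21, Gpr155, Art2a-ps, Itgb8 and Angptl2 passed with each array left out and with each of these normalizations, filters and weights. They did not pass with the fixed block or with infarction 5 counted as sham.

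**Figure D4:**
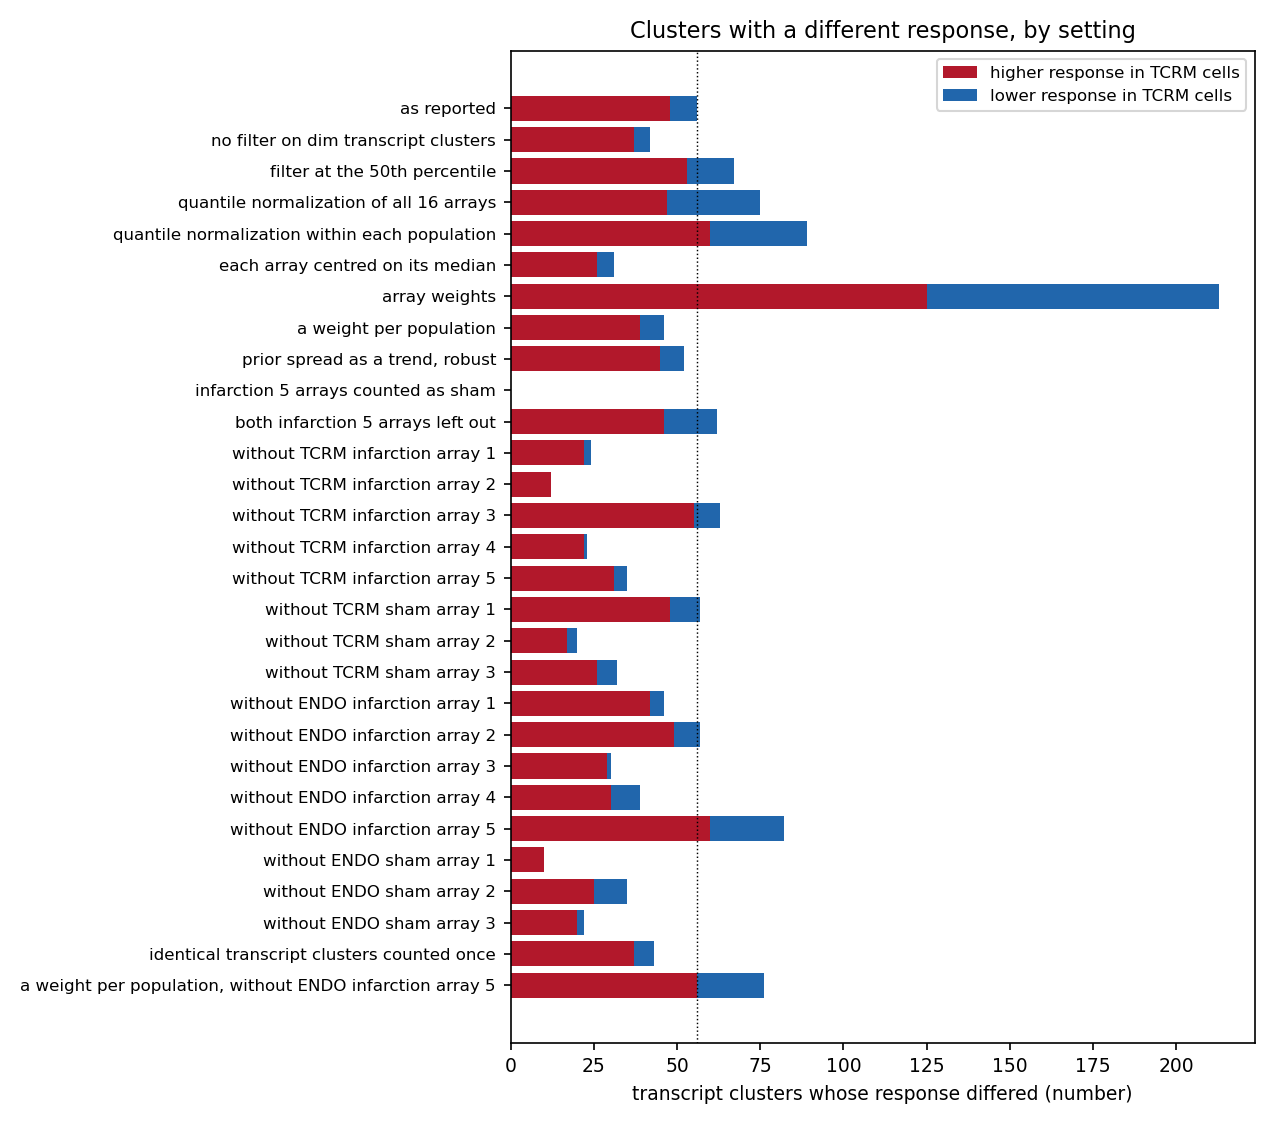
Number of transcript clusters whose response differed (horizontal axis) under the settings drawn (rows), split into a higher (red) and a lower (blue) response in TCRM cells. The dotted line marks the 56 reported. Other thresholds and the replicate blocks are not drawn, and the fixed replicate block also gave 0. Among the settings drawn, the count runs from 0, with infarction 5 counted as sham, to 213 with array weights. It runs from 10 to 82 with 1 array left out.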

How the data were processed

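CD4+ TCRbeta+ cells were sorted to a purity above 98% and their RNA was amplified, per the labels' protocols, and measured on Affymetrix whole transcript arrays. Log2 signal of 41345 transcript clusters on 16 arrays was deposited by the authors, and the number of arrays limits the precision. Per the submitters' processing notes, Affymetrix Expression Console and the Transcriptome Analysis Console were used; how signal was summarised and normalized is not given. A further table for each population was deposited (196 TCRM and 274 ENDO clusters, headed 2-fold and p under 0.05) with other values, averages written with decimal commas, which were used only for symbols and to check the labels. Of their 468 clusters 270 had 1 symbol, and no other cluster was named; 70 of 75 genes named in the text matched a RefSeq symbol (GRCm38.p6), 3 a synonym and 2 neither.

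The 12404 clusters with a mean signal below the 30th percentile (4.72 on the log2 scale) were not tested. limma 3.58.1 in R 4.3.3 (lmFit, eBayes) was fitted with 1 mean per group and 1 spread for all arrays. The contrast was (TCRM infarction minus TCRM sham) minus (ENDO infarction minus ENDO sham), 2-sided, adjusted by Benjamini and Hochberg over 28941 clusters at 0.05. SE and 95% intervals come from that fit. The same fit was also run on simulated data with independent normal noise on each array. That run says nothing about shared animals or outlying arrays. Figures used matplotlib 3.10.9 in python 3.11.15.

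Named are genes that passed, up to 10 per direction that came next, list members, up to 8 genes with like responses of at least 0.5 in both populations and up to 8 with opposed ones. Of several clusters of a gene the brightest was used. Gene models, clones, small RNAs and receptor segments were not named. The members, the 15 lists and the tests were chosen with earlier results of these data known. Replicates are separate animals per the series design, and both populations came from the same animals, but no label ties a number to an animal. Deviations of same-numbered arrays correlated between -0.089 and 0.077, with 0 of 8 over 0.1, so no block was used. Alternatives were the filter, scaling, weights, blocks, labels and each array left out.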

Additional observations from a re-analysis of the deposited data

Results flagged for a closer look

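A difference between the populations was found by the test itself for 25 named genes. The TCRM minus ENDO response on the log2 scale was 4.37 for Stfa3, 3.33 for Il21, 3.28 for Cks2, 3.24 for Gpm6b and 3.11 for Sccpdh. It was 2.60 for Gpr155, 2.46 for Art2a-ps, 2.45 for Tigit, 2.15 for Angptl2, 2.07 for Nav2 and 2.01 for Csf1. It was 1.99 for Nt5e, 1.87 for Abhd4, 1.83 for Maf, 1.82 for Tgfb3, 1.79 for Il4 and 1.74 for Itgb8. The smallest values were 1.59 for Dhrs3, 1.55 for Eea1, 1.52 for Coro2b, 1.44 for Ptpn13, 1.44 for Tmem2, 1.35 for Sostdc1, 1.35 for Osbpl3 and 1.29 for Cst7.

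A single infarction array stood far from the other 4 of its group for 3 of the 75 named genes in TCRM cells, and for 9 of the 75 in ENDO cells; chance alone gives about 1 gene in 20. As a share of the range, the gap to the nearest array was 0.929 for Dnajc9, high on TCRM infarction array 1 (8.64 against 8.27 to 8.29). It was 0.761 for Trim34a, low on the same array (8.21 against 8.75 to 8.92), and 0.787 for n-R5s14 on array 3. ENDO infarction array 1 stood apart for 4 genes: Prdm1 (0.844), Nkg7 (0.808) and Fam43a (0.720) were high and Dsp (0.795) was low. ENDO infarction array 5 was high for Cyfip1 (0.762) and low for Mcm2 (0.741) and Tnfsf8 (0.711). Lad1 was high on ENDO infarction array 2 (0.854) and Il1r1 low on ENDO infarction array 3 (0.712). None of these 12 genes passed the test of the difference, and these arrays' part in their values was not tested.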

How the results depend on the processing

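The count of 56 became 89 with quantile normalization within each population, 31 with each array centred on its median, 213 with array weights and 110 at a threshold of 0.10. It was 0 with infarction 5 arrays counted as sham and ran from 10 to 82 with 1 array left out. Counts within 1.5 times were 42 without a filter, 67 with a filter at the 50th percentile, 75 after quantile normalization of all arrays, 46 with a weight per population, 52 with a robust trend, 62 without both infarction 5 arrays and 55 with a difference of at least 1. With clusters of identical values counted once 43 differed, and a weight per population without ENDO infarction array 5 gave 76; both settings were chosen after seeing the data. A paired fit with the number as a fixed replicate block gave 0 (limma, 2476 at unadjusted p under 0.05), with an adjusted p of 0.0524 to 0.135 for the 25 called genes. A random replicate block gave 61 (correlation 0.0173). Whether arrays of the same number come from the same animal is not known. The 25 called genes kept the sign of their difference under every setting run, while 5 of the 75 named genes, none of them called under any, changed it: Lgals1 (-0.30 to 0.37), Myl6 (-0.25 to 0.64), Tbc1d4 (-0.41 to 0.80), mt-Tr (-0.34 to 0.92) and ND4L (-0.01 to 0.80). Signal over background is not known, so differences of dim genes are limited, and Stfa3, Sccpdh and Cks2 had a TCRM sham mean under the filter cutoff.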

Other observations

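Opposite responses of at least 0.5 on the log2 scale in the 2 populations were found for 2 named genes, Cks2 and Olfr99, the second an olfactory receptor gene. Olfr99 signal was 4.40, 4.06, 4.88, 4.16 and 4.18 on TCRM infarction arrays, against 4.43, 3.08 and 3.28 on TCRM sham arrays. On ENDO arrays it was 4.78, 7.71, 7.46, 7.14 and 6.43 after infarction and 9.14, 8.26 and 8.42 after sham operation. All ENDO infarction arrays lay under the ENDO sham arrays, with array 1 far under the rest, and most TCRM values lay under the filter cutoff of 4.72. The difference of 2.64 ± 0.74 did not pass (limma adjusted p = 0.228).

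Trim34a, of the interferon list, showed a like order of ENDO arrays. Its ENDO signal was 9.05, 10.82, 10.88, 10.69 and 9.41 after infarction, against 11.93, 11.84 and 11.98 after sham operation. ENDO infarction arrays 1 and 5 were the lowest for both genes, and the sham arrays the highest. The TCRM signal of Trim34a was 8.21, 8.81, 8.83, 8.75 and 8.92 after infarction and 9.34, 9.15 and 8.29 after sham operation, and overlapped.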
